A study of Homo sapiens with 6 samples.

Results

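Platelet-derived growth factors (PDGFs) are secreted dimers that bind and activate tyrosine kinase receptors, and the set described here holds the genes for the ligands PDGFA, PDGFB, PDGFC and PDGFD, the receptors PDGFRA and PDGFRB, the receptor-like protein PDGFRL, and the proteases PLAT, PLAU and ST14. These 10 genes were taken by symbol from a table of 60664 human genes. RNA-seq libraries of cells with a stable short hairpin RNA (shRNA) against PDGFC (shPDGFC, n = 3) were set against libraries of cells with the hairpin labelled shNC (n = 3). All 6 libraries came from cells whose cell line label is LNCaP, a human prostate cancer line, and whose titles read LNCaPE; the design text places the hairpin in LNCaP-EnzaR, a line resistant to the antiandrogen enzalutamide. The sources used here do not say whether the lines were clones or pools, how many hairpins were used, or whether drug was present. They also do not say whether replicates were grown separately, so each p-value refers to the scatter among these 6 libraries, which could be technical only.

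PDGF-A and PDGF-B are cut inside the cell by furin-like proprotein convertases and leave it as active factors. PDGF-C and PDGF-D carry a CUB domain in front of the growth factor domain and are secreted latent; a protease outside the cell removes the CUB domain and frees the part that binds the receptor. Tissue plasminogen activator (PLAT) is the protease best known for PDGF-C, urokinase (PLAU) and matriptase (ST14) for PDGF-D, and plasmin can cut both. Active PDGF-C binds PDGFRA homodimers or heterodimers with PDGFRB, PDGF-D binds mainly PDGFRB, PDGF-A binds PDGFRA, and PDGF-B binds each receptor combination. In the normal prostate and in most carcinomas the ligands are known from epithelial cells and the receptors from stroma.

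The coding bases at or near the cutting sites are shown because the ligands differ in where the cut lies and in which proteases make it. Each stretch below has 60 bases, 5′ to 3′ on the coding strand, from the GENCODE version 29 principal transcript with the longest coding sequence (GRCh38). The capitals mark the 4 codons of a basic site chosen beforehand to place the stretch. Whether the chain is cut exactly there was not examined.
PDGFC: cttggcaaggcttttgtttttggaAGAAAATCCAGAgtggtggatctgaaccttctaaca
PDGFD: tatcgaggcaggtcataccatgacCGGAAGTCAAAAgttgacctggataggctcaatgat
PDGFA: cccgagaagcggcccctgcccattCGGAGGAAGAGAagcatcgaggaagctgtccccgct
PDGFB: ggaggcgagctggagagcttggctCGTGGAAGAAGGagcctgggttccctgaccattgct
The site of PDGFC lies at codons 231 to 234 of 345 and that of PDGFD at codons 248 to 251 of 364, behind the long CUB-bearing part, whereas the sites of PDGFA (codons 83 to 86 of 196) and PDGFB (codons 78 to 81 of 241) end a short propeptide. In all 4 genes, which are on the minus strand, the printed bases cross an exon junction, 1 base after the site in PDGFC and PDGFD and 7 bases after it in PDGFA and PDGFB. The PDGFC bases are chr4:156772686-156772722 and chr4:156767968-156767990, and the PDGFD bases are chr11:103943452-103943488 and chr11:103927104-103927126. Those of PDGFA are chr7:512351-512393 and chr7:510980-510996, and those of PDGFB are chr22:39233435-39233477 and chr22:39231811-39231827.

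The libraries held between 17360455 and 23930217 reads, the total behind the deposited values as recovered from them. The values are in RPKM, reads scaled to gene length and library total, so levels can be compared between genes. The defining markers of the labelled cell type were partly absent. Of 11 luminal markers 8 reached 1 RPKM in every library, led by HOXB13. KLK3 and KLK2, the genes for prostate-specific antigen and its neighbour kallikrein, had 0 reads in the shPDGFC libraries and 1 read each in the shNC libraries. Of the epithelial markers KRT8 was the highest and KRT19 lay under 0.2 RPKM in every library, and the summed list held 164.8 to 180.8 RPKM in shPDGFC and 151.9 to 156.0 RPKM in shNC. Its members went both ways: KRT18, a keratin, rose 1.27-fold (limma, adjusted p = 0.0015), while the adhesion genes EPCAM (ratio 0.826, adjusted p = 0.026) and CDH1 (ratio 0.578, adjusted p = 0.017) fell. CDH1 reached the filter through shNC only, and these members were named after their values were seen. All 5 endothelial and 4 of 5 immune markers lay under 0.2 RPKM in every library, the exception being CD14 (0.523 RPKM in shPDGFC and 0.355 RPKM in shNC). Mitochondrial genes took 4.18% to 4.66% of the reads in shPDGFC and 3.73% to 4.06% in shNC, without overlap; the part of these shifts in the results below was not tested.

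PDGFC, the target of the hairpin, checks the labels. It was measured at 3.0, 2.43 and 2.52 RPKM in the shPDGFC libraries, against 8.19, 8.71 and 8.13 RPKM in the shNC libraries. Every shPDGFC library lay below every shNC library, and the mean in shPDGFC was 0.318 times that in shNC. The fall on the log2(RPKM + 1) scale was -1.36 ± 0.066 (SE; limma, adjusted p = 0.00016; 95% confidence interval -1.51 to -1.20), and on the reads it was -1.66 (limma-voom). It was the second largest size of change among 15337 tested genes. The knockdown was partial: 702 PDGFC reads remained over the 3 shPDGFC libraries, where the 3 shNC libraries had 2476. PDGFC (ENSG00000145431; chromosome 4, 156760454 to 156971394, minus strand) shares no exon bases with another annotated gene.

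**Figure D1:**
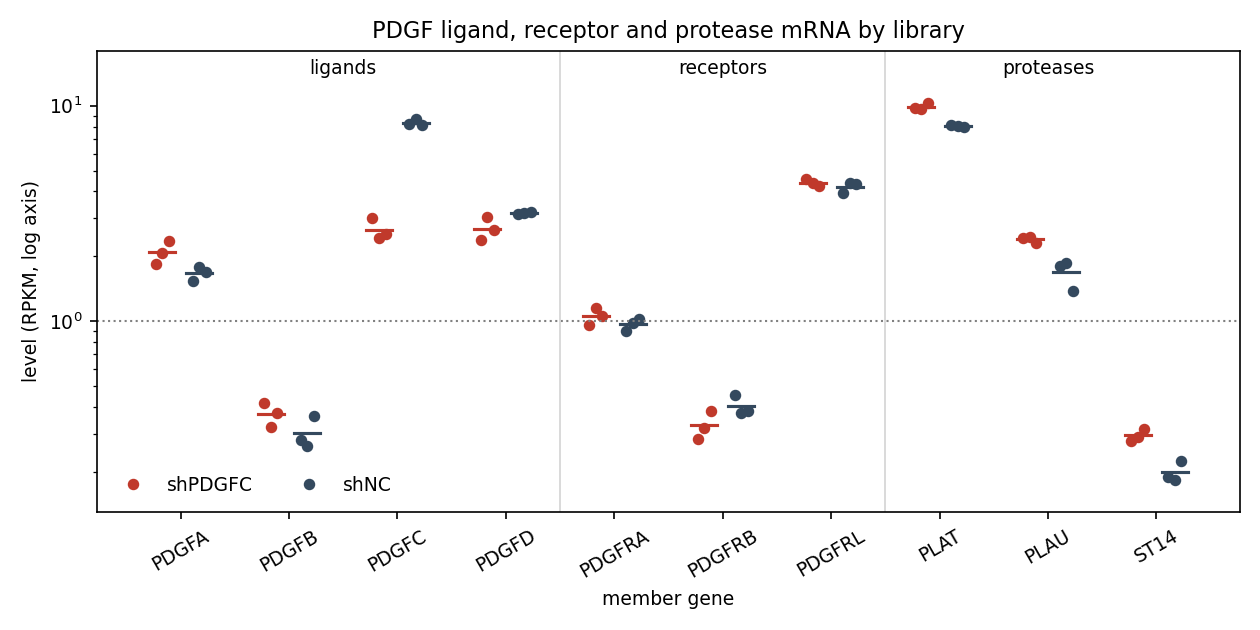
Level of each of the 10 genes in RPKM (log axis), with 1 point per library, shPDGFC in red on the left and shNC in dark blue on the right of each gene, and a bar at the mean of 3 libraries; the dotted line is 1 RPKM, the level needed in 3 libraries for the test. PDGFC is the gene whose groups stand furthest apart, and PLAT, PLAU and ST14 each lie higher in all shPDGFC libraries than in any shNC library. So do 17.4% of the 21285 genes that reached 0.2 RPKM in 3 libraries.

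PDGFD, the ligand most like PDGFC in structure, was lower in shPDGFC by a margin that the main test did not call. It had 2.39, 3.03 and 2.66 RPKM in the shPDGFC libraries, against 3.15, 3.17 and 3.21 RPKM in the shNC libraries. The groups did not overlap, but the shPDGFC libraries spread widely (2.69 ± 0.32 RPKM, against 3.17 ± 0.033 RPKM in shNC; SD, n = 3 each), and replicate 2 came close to the shNC libraries. The log2 change was -0.18 ± 0.071 (SE; limma, adjusted p = 0.096; 95% confidence interval -0.35 to -0.014). PDGFD passed on the recovered reads (limma-voom, log2 change -0.24, adjusted p = 0.031) and without shPDGFC replicate 2 (-0.25, adjusted p = 0.035), so its call depends on that library and on the test. It shares 193 exon bases with DDI1 on the opposite strand, which had 0 reads. Over the 14 settings, including the main one, its adjusted p ranged from 0.031 to 0.23.

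PDGFA, which encodes a ligand of PDGFRA, went the other way with as little certainty. Its level was 1.85, 2.08 and 2.35 RPKM in the shPDGFC libraries, against 1.54, 1.78 and 1.68 RPKM in the shNC libraries. Each shPDGFC library exceeded all shNC libraries, the narrowest gap being that between shPDGFC replicate 1 and shNC replicate 2. The log2 change of 0.21 ± 0.082 (SE) missed the threshold (limma, adjusted p = 0.093; 95% confidence interval 0.018 to 0.40) and passed on the reads with the same filter (limma-voom, 0.34, adjusted p = 0.045) but not with the filter at 0.2 RPKM (adjusted p = 0.055), with adjusted p between 0.045 and 0.24 over all settings. PDGFB, whose product is the most broadly binding ligand, lay below the tested level. It ranged from 0.321 to 0.417 RPKM in shPDGFC and from 0.264 to 0.362 RPKM in shNC, on 80 and 74 reads, and the groups overlapped. With the filter lowered to 0.2 RPKM its log2 change was 0.074 (limma, adjusted p = 0.53). On the reads it was 0.27 (limma-voom, adjusted p = 0.44), with a wide 95% confidence interval of -0.21 to 0.76.

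The composition of the ligand mRNA shifted with the knockdown. PDGFC made up 39.2%, 30.9% and 31.9% of the summed ligand RPKM in the shPDGFC libraries, against 62.3%, 62.6% and 60.7% in the shNC libraries. In shPDGFC it was level with PDGFD, with a ratio of PDGFC to PDGFD of 1.00 ± 0.23, against 2.63 ± 0.11 in shNC (SD, n = 3 each). The sum over all 4 ligands was 7.80 ± 0.13 RPKM in shPDGFC and 13.5 ± 0.40 RPKM in shNC. The other ligands together held 4.65, 5.43 and 5.38 RPKM in the shPDGFC libraries, against 4.97, 5.21 and 5.26 RPKM in the shNC libraries. These sums overlapped, with means of 5.15 RPKM in shPDGFC and 5.15 RPKM in shNC: their means were higher in shPDGFC for PDGFA and PDGFB and lower for PDGFD, and the difference in the ligand total was in PDGFC.

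**Figure D2:**
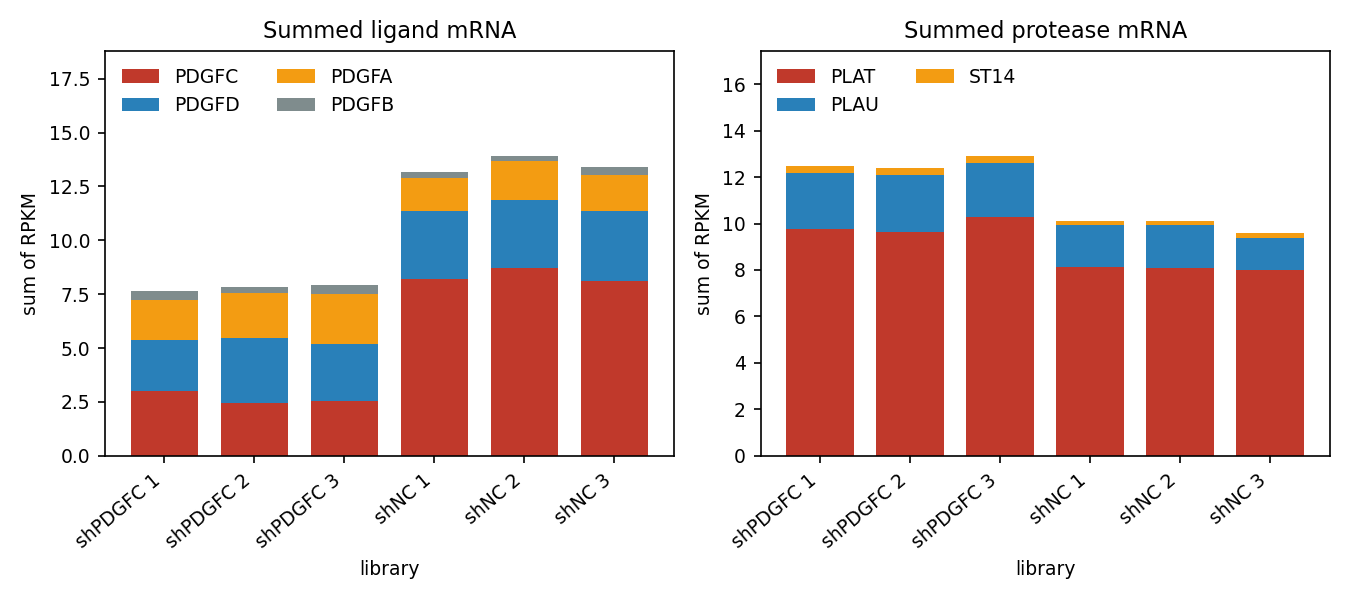
Summed level in RPKM of the 4 ligand genes (left panel) and the 3 protease genes (right panel) in each library, as stacked bars from 0, shPDGFC libraries left of shNC libraries. The ligand bars average 7.80 RPKM in shPDGFC and 13.5 RPKM in shNC, with the difference in the PDGFC part, and the protease bars average 12.6 RPKM in shPDGFC and 9.94 RPKM in shNC, most of it PLAT.

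The genes for the kinase receptors were expressed at low levels in both groups. PDGFRA, the receptor that PDGF-C binds, had 0.957, 1.16 and 1.05 RPKM in the shPDGFC libraries, against 0.904, 0.979 and 1.02 RPKM in the shNC libraries. The libraries of the groups interleaved. The level exceeded that of 1.59% of the tested genes, a set from which the filter at 1 RPKM had removed lower genes. The log2 change was 0.061 ± 0.084 (SE; limma, adjusted p = 0.62), and its 95% confidence interval ran from -0.14 to 0.26, so neither a small rise nor a small fall was detectable at this depth (395 reads in shPDGFC and 402 in shNC). On the reads the log2 change of PDGFRA was 0.13 (limma-voom, adjusted p = 0.37). PDGFRB had 0.283, 0.319 and 0.384 RPKM in the shPDGFC libraries, against 0.455, 0.375 and 0.382 RPKM in the shNC libraries. Its groups overlapped through shPDGFC replicate 3, and with the filter at 0.2 RPKM its log2 change was -0.080 (adjusted p = 0.49; on the reads -0.30, adjusted p = 0.26).

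PDGFRA made up most of the kinase receptor mRNA, 76.3% ± 2.7 of the sum of PDGFRA and PDGFRB in shPDGFC and 70.6% ± 3.5 in shNC (SD, n = 3 each), and the summed RPKM was 1.38 ± 0.13 in shPDGFC and 1.37 ± 0.029 in shNC. PDGFRL, which encodes a protein with immunoglobulin domains like those of PDGFRB and no kinase, was more abundant than either receptor. It ranged from 4.22 to 4.55 RPKM in shPDGFC and from 3.94 to 4.36 RPKM in shNC, and the groups overlapped (log2 change 0.048 ± 0.052 SE; adjusted p = 0.53; 95% confidence interval -0.074 to 0.17). It shares 277 exon bases with MTUS1 on the opposite strand, which stood at 7.42 RPKM over the 6 libraries and did not pass the test (log2 change 0.083), and with the strand setting unknown the reads of the pair cannot be told apart there. The kinase receptors are also used to mark fibroblasts and other stroma. Of 10 genes of that marker list, 3 (COL1A2, THY1 and FAP) lay under 0.2 RPKM in all libraries and THY1 had 0 reads, while PDPN was the highest. The summed list held 45.6 to 46.4 RPKM in shPDGFC and 48.2 to 50.3 RPKM in shNC, without overlap, but its members went both ways. LUM (ratio 0.706, adjusted p = 0.00053) and ACTA2 (ratio 0.775, adjusted p = 0.005) fell, while COL3A1 (ratio 1.65, adjusted p = 0.013), which reached the filter through shPDGFC only, and PDPN (ratio 1.12, adjusted p = 0.033) rose; all but PDPN were named after their values were seen. The part of these genes in the receptor levels was not tested. In bulk RNA, fewer cells of a type and less RNA per cell cannot be told apart.

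For each of the 3 protease genes all shPDGFC libraries lay above all shNC libraries, and the more abundant 2 passed the test. The same separation was seen in 17.4% of the 21285 genes that reached 0.2 RPKM in 3 libraries. ST14 reached that level in every shPDGFC library but in shNC only in replicate 3. PLAT, for tissue plasminogen activator, had 9.76, 9.64 and 10.3 RPKM in the shPDGFC libraries, against 8.12, 8.07 and 7.99 RPKM in the shNC libraries. The gap between the groups exceeded the spread within either, and PLAT rose 1.23-fold (log2 change 0.27 ± 0.035 SE; limma, adjusted p = 0.0023; 95% confidence interval 0.18 to 0.35). This call held in all 13 alternatives run, with adjusted p from 5.9e-05 to 0.015. PLAT rested on 1770 reads in shPDGFC and 1608 in shNC, and was the most abundant of the 10 genes in shPDGFC.

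PLAU (ENSG00000122861; chromosome 10, 73909177 to 73917497), which encodes urokinase, had 2.43, 2.47 and 2.31 RPKM in the shPDGFC libraries, against 1.80, 1.87 and 1.38 RPKM in the shNC libraries. The groups did not overlap, and shNC replicate 3 lay lowest. PLAU rose 1.43-fold (log2 change 0.35 ± 0.086 SE; limma, adjusted p = 0.021; 95% confidence interval 0.15 to 0.55), and by 0.54 on the reads (limma-voom, adjusted p = 0.0017). The call was lost without shPDGFC replicate 1 (adjusted p = 0.057) or replicate 2 (0.058) and when every gene with any value was tested (0.072), with the log2 change at 0.34 to 0.35. It shares 916 exon bases with C10orf55 on the opposite strand, whose level was 0.0595 RPKM.

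ST14, for the membrane protease matriptase, was the least abundant of the 10 genes. It had 0.279, 0.29 and 0.316 RPKM in the shPDGFC libraries, against 0.19, 0.182 and 0.224 RPKM in the shNC libraries. The groups did not overlap, but with 57 reads in shPDGFC and 43 in shNC the ratio of 1.48 is imprecise. On the reads, with the filter at 0.2 RPKM, the log2 change was 0.56 with a 95% confidence interval of -0.023 to 1.14 (limma-voom, adjusted p = 0.15), and on log2(RPKM + 1) it was 0.11 (adjusted p = 0.29), so ST14 did not pass.

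**Figure D3:**
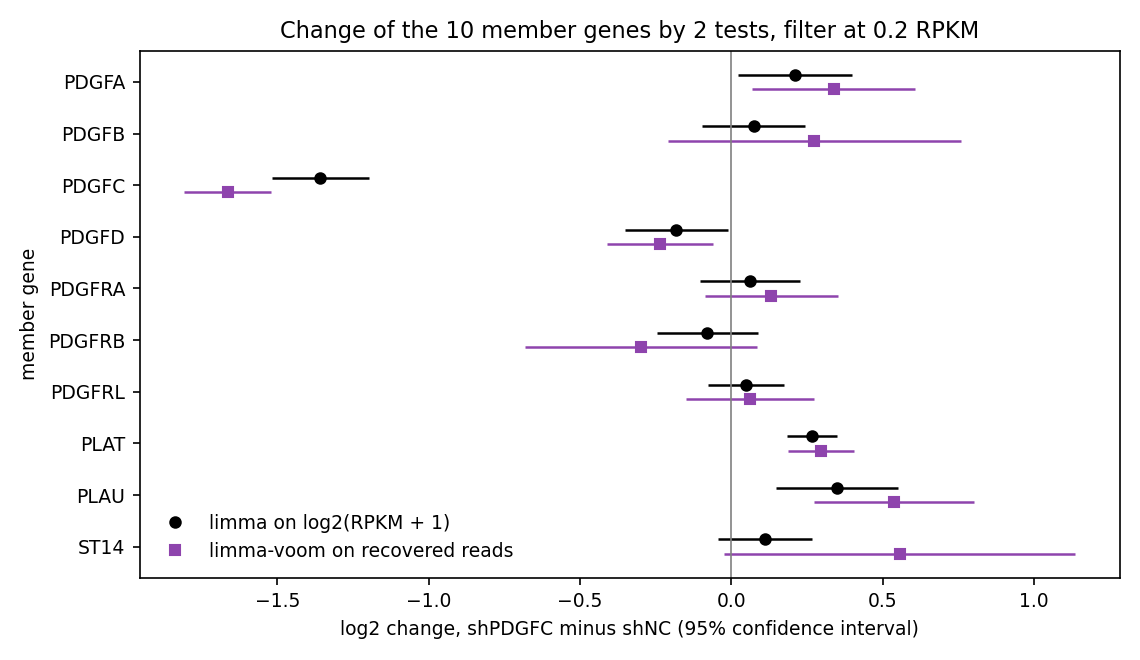
Log2 change (shPDGFC minus shNC) of the 10 genes with 95% confidence intervals, by limma on log2(RPKM + 1) (black circles) and limma-voom on the recovered reads (purple squares), each fitted over all genes with at least 0.2 RPKM in 3 libraries. Only PDGFC, PLAT and PLAU lie clear of 0 with an adjusted p under 0.05 by both tests, and the pseudocount pulls the black points of genes with low RPKM, such as ST14 at 0.11 against 0.56 on the reads, towards 0.

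The count of members called was set beside that of all tested genes, and whether it is unusual was not tested. Of the 7 members tested, 2 rose (PLAT and PLAU) and 1, the hairpin's target, fell, while 29.8% of all 15337 tested genes were called (14.2% higher and 15.6% lower). With the filter at 0.2 RPKM, 3 of 10 members were called, and 20.6% of all genes tested there. On the reads 5 of 7 were called, where 37.6% of all tested genes were, and with the filter at 0.2 RPKM 4 of 10, where 27.8% were. The groups did not overlap in 6 of the 10 members, 4 higher and 2 lower, and in 39.3% of the 21285 genes that reached 0.2 RPKM in 3 libraries, as all 10 do (17.4% higher and 21.8% lower). ST14 needed the shPDGFC libraries, where it was higher, to do so, as in shNC only replicate 3 reached 0.2 RPKM. For the genes that averaged at least 0.2 RPKM over the 6 libraries, as all 10 also do, the share was 39.2%. Among the 7 tested members it was 5, against 46.8% of all tested genes. By size PLAU ranked 272 and PLAT 584 among rises. The median log2 change of the 7 tested members was 0.061, and that of all tested genes -0.013.

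The order of levels differed between the groups. In shNC, PDGFC (8.35 RPKM) and PLAT (8.06 RPKM) led, with ranges that did not overlap though they nearly touched, followed by PDGFRL, PDGFD, PLAU and PDGFA, of which the last pair overlapped (1.68 and 1.67 RPKM). In shPDGFC, PLAT (9.90 RPKM) and PDGFRL (4.38 RPKM) led, and PDGFD, PDGFC, PLAU and PDGFA followed with ranges that overlapped from each to the next. PDGFRA came next in either group. PDGFRB, PDGFB and ST14 closed the order in shNC without overlap, and PDGFB, PDGFRB and ST14 in shPDGFC with overlapping ranges.

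The genes whose levels followed PDGFC most closely over the 6 libraries were EML5 (Pearson r = 1.00 on log2(RPKM + 1)), EIF1AX (r = 0.999), PRKAB2 (r = 0.999), PRUNE2 (r = 0.999) and ASTN1 (r = 0.998). EIF1AX, a translation initiation factor, fell to 43.4 ± 0.96 RPKM in shPDGFC, against 60.7 ± 1.4 RPKM in shNC (SD, n = 3 each; adjusted p = 0.00021). PRKAB2, a regulatory subunit of the AMP-activated kinase, fell to 21.3 RPKM in shPDGFC, against 24.0 RPKM in shNC. EML5 had 4.33 RPKM in shPDGFC and 4.76 RPKM in shNC and did not pass (adjusted p = 0.061). These correlations share the difference between the groups, and 1852 of 15336 genes had r above 0.9, so the choice of these 5 rests on small deviations between libraries.

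Genes known to act around the PDGF system were taken in 7 lists, of which 60 of 80 genes were tested, and 17 rose and 9 fell (43.3% called, against 29.8% of all tested genes). The 26 calls dropped to 15 without shNC replicate 1 (25% called, against 21.7% of all tested genes), to 16 without shPDGFC replicate 3 (26.7%, against 22.1%) and to 17 without shNC replicate 2 (28.3%, against 23.4%). Their median log2 change was 0.024. Among the co-receptors 1 of 5 rose and 0 fell (20% called, against 29.8% of all tested genes). The gene that rose was NRP1, a neuropilin that binds PDGFs beside its other ligands. NRP1 stood at 12.4 ± 0.36 RPKM in shPDGFC and 10.5 ± 0.23 RPKM in shNC (SD, n = 3 each, limma adjusted p = 0.0035). The most abundant co-receptor, LRP6, had 15.9 RPKM in shPDGFC and 16.2 RPKM in shNC (adjusted p = 0.55), and CSPG4, the NG2 proteoglycan, 1.78 RPKM in shPDGFC and 1.88 RPKM in shNC (adjusted p = 0.56).

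The adaptors and effectors of the PDGF receptors changed in both directions. Of 24 tested, 7 rose and 6 fell (54.2% called, against 29.8% of all tested genes), with a median log2 change of -0.0097. The catalytic subunits of phosphoinositide 3-kinase moved apart. PIK3CB, for p110 beta, fell to 6.02 ± 0.30 RPKM in shPDGFC, against 8.71 ± 0.29 RPKM in shNC (SD, n = 3 each; log2 change -0.47, adjusted p = 0.00084). PIK3CA, for p110 alpha, rose to 5.08 ± 0.11 RPKM in shPDGFC, against 4.08 ± 0.093 RPKM in shNC (log2 change 0.26, adjusted p = 0.0043), but 3403 of its exon bases are shared with KCNMB3 on the opposite strand (4.06 RPKM, not called), so its level is uncertain. The adaptor CRK rose (log2 change 0.27, adjusted p = 0.0014) and STAT3, a transcription factor downstream of many receptors, fell to 20.7 ± 0.67 RPKM in shPDGFC, against 25.1 ± 0.23 RPKM in shNC (adjusted p = 0.0013). PTPN11, the phosphatase SHP2 and the most abundant of the list, had 66.5 RPKM in shPDGFC and 63.1 RPKM in shNC (adjusted p = 0.066), and overlaps the far more abundant RPL6 by 111 exon bases.

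Of 9 tested phosphatases and ubiquitin ligases that end receptor signalling, 2 rose and 2 fell (44.4% called, against 29.8% of all tested genes). PTPN6, the phosphatase SHP1, fell to 6.41 ± 0.15 RPKM in shPDGFC, against 8.26 ± 0.43 RPKM in shNC (SD, n = 3 each; log2 change -0.32, adjusted p = 0.0026). PTPRJ, a receptor phosphatase known to act on PDGFRB, rose to 3.33 RPKM in shPDGFC, against 2.81 RPKM in shNC (adjusted p = 0.028), and PTPN12 to 23.4 RPKM in shPDGFC, against 21.8 RPKM in shNC (adjusted p = 0.036). CBL, the ligase that tags activated receptors, fell to 16.2 RPKM in shPDGFC, against 17.4 RPKM in shNC (adjusted p = 0.035), and shares 509 exon bases with MCAM on the opposite strand. The calls for PTPRJ, CBL and PTPN12 were each lost in 5 of the 6 fits that leave out a library (highest adjusted p 0.10). The 4 calls of the list dropped to 1 without shPDGFC replicate 3, shNC replicate 1 or shNC replicate 2, and to 2 without shPDGFC replicate 2 or shNC replicate 3. ACP1, the most abundant of the list, had 168.4 RPKM in shPDGFC and 172.5 RPKM in shNC (adjusted p = 0.37).

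Of 12 listed partners and inhibitors of PLAT and PLAU in plasminogen activation, 7 were tested. Of these 3 rose and 0 fell, with a median log2 change of 0.10. That is 42.9% called, against 29.8% of all tested genes, of which 14.2% were called higher. ANXA2, a cell surface receptor for tissue plasminogen activator and plasminogen, rose to 118.2 ± 0.41 RPKM in shPDGFC, against 98.7 ± 2.8 RPKM in shNC (SD, n = 3 each; log2 change 0.26, adjusted p = 0.00098). SERPINI1, neuroserpin, which inhibits tissue plasminogen activator, rose to 4.69 ± 0.32 RPKM in shPDGFC, against 3.49 ± 0.53 RPKM in shNC (adjusted p = 0.025). ENO1, an enolase that also binds plasminogen, rose to 947.3 RPKM in shPDGFC, against 873.1 RPKM in shNC (adjusted p = 0.032). PLGRKT, a plasminogen receptor, had 9.06 RPKM in shPDGFC and 10.0 RPKM in shNC (adjusted p = 0.14). PLAUR (limma, adjusted p = 0.49), S100A10 (0.18) and SERPINE2 (0.21) were not called either, and were named after their values were seen. The call for SERPINI1 was lost in 4 and that for ENO1 in 5 of the 6 fits that leave out a library. The 3 calls of the list dropped to 1 without shPDGFC replicate 1, shNC replicate 1 or shNC replicate 2. PLG, the gene for plasminogen itself, had 0 reads in shPDGFC and 1 in shNC, and was named after its values were seen.

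Of 9 listed partners and inhibitors of matriptase only 3 were tested and 0 passed (limma, against 29.8% of all tested genes). On the reads 0 passed too, against 37.6% of all tested genes. SPINT2, an inhibitor of matriptase, had 15.8 RPKM in shPDGFC and 15.4 RPKM in shNC (adjusted p = 0.73), and F2RL1, the receptor PAR2, 14.99 RPKM in shPDGFC and 13.98 RPKM in shNC (adjusted p = 0.080). Among the proprotein convertases 1 of 5 rose and 1 fell (40% called, against 29.8% of all tested genes). PCSK6 fell to 10.3 ± 0.70 RPKM in shPDGFC, against 12.55 ± 0.061 RPKM in shNC (SD, n = 3 each; log2 change -0.26, adjusted p = 0.0063), and shares 1428 exon bases with SNRPA1-DT on the opposite strand (0.803 RPKM). MBTPS1, the site-1 protease, rose to 41.9 RPKM in shPDGFC, against 39.6 RPKM in shNC (adjusted p = 0.036), a call lost whichever of the 6 libraries was left out, which takes the list from 2 calls to 1. FURIN, the convertase best known for PDGF-A and PDGF-B, had 8.72 RPKM in shPDGFC and 8.50 RPKM in shNC (adjusted p = 0.47), and PCSK5 2.002 RPKM in shPDGFC and 2.031 RPKM in shNC (adjusted p = 0.89).

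The vascular endothelial growth factors and the receptors related to those of PDGF by descent gave 3 rises and 0 falls of 7 tested. That is 42.9% called, against 29.8% of all tested genes, of which 14.2% were called higher. FLT1, for the receptor VEGFR1, rose to 5.87 ± 0.16 RPKM in shPDGFC, against 4.97 ± 0.065 RPKM in shNC (SD, n = 3 each; log2 change 0.20, adjusted p = 0.0083). PGF, the placental growth factor that binds FLT1, rose to 11.5 ± 0.22 RPKM in shPDGFC, against 9.94 ± 0.65 RPKM in shNC (adjusted p = 0.018). The call for PGF was lost in 3 of the 6 fits that leave out a library, and leaving out shPDGFC replicate 3 or shNC replicate 1 left 1 call in the list. VEGFA, the most abundant member, had 20.2 RPKM in shPDGFC and 22.0 RPKM in shNC (adjusted p = 0.076). KIT, the stem cell factor receptor of the same class as the PDGF receptors, had 7.39 RPKM in shPDGFC and 8.22 RPKM in shNC (adjusted p = 0.051).

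**Figure D4:**
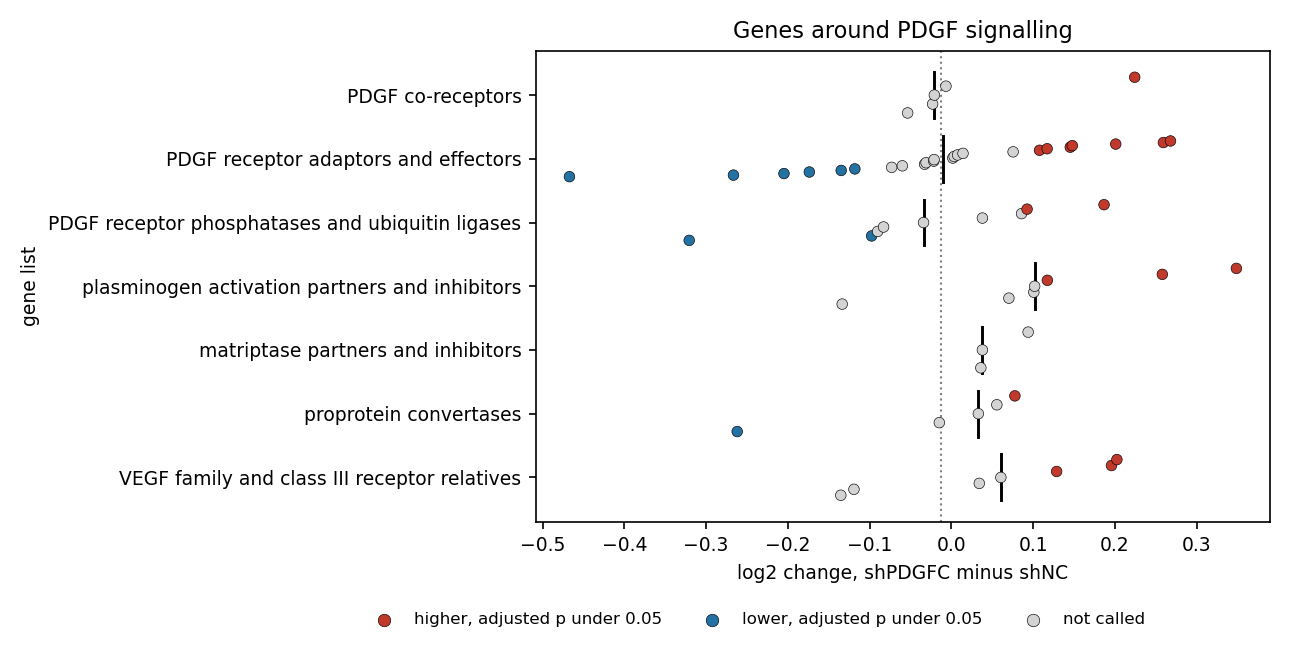
Log2 change (shPDGFC minus shNC, limma on log2(RPKM + 1)) of each tested gene of the 7 lists, 1 row per list, with red for genes that rose, blue for genes that fell and grey for genes that were not called at an adjusted p of 0.05; black bars are list medians and the dotted line is the median of all tested genes, -0.013. The adaptor list spreads to both sides, from -0.47 to 0.27, and the median of the plasminogen activation list lies at 0.10.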

How the data were processed

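The authors deposited a table of values per gene and library whose header names no unit. The authors deposited RPKM, reads normalised to gene length and library total, as read from the values, because within each of the 37040 genes with any value they are whole multiples of a step set by the gene and the library. Dividing out these steps gave whole reads (largest distance 3.2e-10), which sum to 99.45% to 99.46% of the recovered library totals. A factor common to all libraries of a gene and to its length cannot be recovered, so read numbers are in lowest terms. No source used here states the aligner, counter, annotation or strand setting. Mouse builds, GRCm38 and mm10, are named in the submitters' processing notes, while all 60664 identifiers are human Ensembl genes.

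Genes with at least 1 RPKM in at least 3 libraries were fitted with limma 3.58.1 (R 4.3.3) on log2(RPKM + 1), using limma's trended prior variance, no block and Benjamini-Hochberg adjustment over all of them, threshold 0.05. This scale understates changes of low genes. "Rose" and "fell" mean passed. Symbols came from the reference name table (42217 identifiers), and coordinates and overlaps from GENCODE version 29. The procedure was tested on simulated data. Members, lists and tests were chosen with earlier results of these data known. Named genes were the 10 members, the 2 higher and 2 lower genes with the smallest p and the most abundant gene of each list, and the 5 genes most correlated with PDGFC; of the marker lists, the genes under 0.2 RPKM and the most abundant were to be named, and some are given as counts only. Same-group libraries differed by more than counting noise (chi-square per degree of freedom 1.462 to 2.566), so none was treated as a repeat deposit of another; this does not show that they are separate cultures. Values of some genes of the lists are not reported here.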

Additional observations from a re-analysis of the deposited data

How the results depend on the processing

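Under the 13 alternatives PDGFC and PLAT kept their direction and their calls, and no called result changed sign. The count of members called was 3, and 5 with limma-voom on the recovered reads, an alternative chosen after seeing the data, which added PDGFA and PDGFD, and 4 with its filter at 0.2 RPKM, which added PDGFD; it was 2 to 3 when a library was left out (PLAU did not pass without shPDGFC replicate 1 or 2), and 2 with no filter. Of 30 named genes called, markers included, 19 kept their call in each alternative that tested them; CDH1 and COL3A1 fell under the filter in 3 fits each. EPCAM lost its call in 4 and PDPN in 5 of the 6 fits that leave out a library. The number of all genes called ranged from 3186 to 5920, against 4571. Upper-quartile scaling put 41.3% of calls higher, against 47.5%. With the replicate number as a replicate block 3469 genes and 3 members were called. Same-numbered libraries did not deviate together (r between -0.11 and -0.018). With 3 libraries per group this cannot show whether they shared a culture, day or batch. The planned edgeR and DESeq2 fits were not run, because the file holds RPKM. PDGFRA fell under the filter in 3 of the fits that leave out a library and has no value there. Few reads (43 to 151 per group) limit ST14, PDGFB and PDGFRB.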
